A study of Mus musculus with 2 samples.

Results

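The genes examined here are 36 genes of focal adhesions and of the actomyosin cytoskeleton, chosen by symbol among the 32285 genes counted, each of which had 1 row in both libraries. They comprise 8 integrin subunits, 13 adaptors and kinases of the adhesion plaque, 3 actin crosslinkers, 5 genes of non-muscle myosin, 6 regulators of actin and small GTPases, and Map1b, a microtubule-binding protein. The identifier in the files matched that of the GENCODE vM21 annotation for all 36, and each is annotated as protein-coding. Their levels were read in nuclei of epididymal WAT, a visceral fat depot, from obese male C57BL/6N mice. The mice were 8 weeks old at the start, ate a high-fat diet (HF) during 6 weeks, and stayed on it for 8 more weeks with 3 intraperitoneal injections per week of PBS (HF-PBS) or of homoharringtonine (HF-HHT), an inhibitor of protein synthesis. The fat of 3 mice was pooled into 1 library per group, and no chow-fed group is part of these libraries.

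Focal adhesions are the sites at which a cell holds on to its surrounding matrix. Integrins are pairs of an alpha and a beta subunit that bind matrix proteins outside the cell. Talin and kindlin activate them from the inside, and vinculin, tensins, paxillin and the complex of integrin-linked kinase, PINCH and parvin link them to actin. Non-muscle myosin pulls on these actin bundles, under the control of kinases such as Rock1, Rock2 and myosin light chain kinase. In fat, the adipocyte is enclosed by a basement membrane of laminin and collagen that it grips through such sites, and the enlargement of fat cells in obesity puts this anchorage under tension.

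The HF-PBS library held 76197757 unique molecular identifiers (UMIs, each a counted RNA molecule) and the HF-HHT library 73313558, over all barcodes. After calling and filtering, 6650 HF-PBS nuclei (median 4317.5 UMIs) and 6439 HF-HHT nuclei (median 3967 UMIs) were kept, and 13 barcodes were present in both. The nuclei formed 27 clusters, built without the genes described here, and were named by marker genes. A level is given as CPM, the UMIs of a gene scaled to a fixed total of UMIs of the class in that library (counts per 1e6), and the comparison is the log2 ratio of CPM, HF-HHT over HF-PBS. Where 2 values follow each other, HF-PBS comes first. Brackets after a level or ratio hold the 95% interval, which covers counting error only. The groups have 1 library each and thus no replicate check or p-value, and "higher" or "lower" below means a difference in size of at least 1.5-fold between these libraries. A gene counts as measured in a class with at least 20 UMIs over both libraries.

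Adipocyte-like nuclei numbered 145 in HF-PBS (median 13114 UMIs) and 841 in HF-HHT (median 11582 UMIs). The 9 adipocyte markers summed to 8470 CPM in HF-PBS against 9771 in HF-HHT, and none was at 0. A small cluster of 5 HF-PBS and 64 HF-HHT nuclei within this class was led by matrix and stress genes such as Col12a1 and Tnc. Adipocyte precursor cells (APCs) numbered 756 and 668, and macrophages 3246 and 1420. Epithelial nuclei of duct-like (692) and multiciliated (120) type and 117 erythroid nuclei came from HF-HHT alone, with 0 of 6650 HF-PBS nuclei, which allows a share of up to 0.0451%. Over all measured genes the median log2 ratio was 0.32 in adipocytes and 0.17 in APCs and in macrophages, so the typical gene lay slightly above 0.

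In adipocyte nuclei, most of the members that differed were lower in HF-HHT. Of the 34 measured members, 15 were at least 1.5-fold lower, beside 12.1% of the 12550 measured genes, and 4 were at least 1.5-fold higher, beside 36% of all measured genes. The median log2 ratio of the members was -0.40, against 0.32 for all measured genes. The members were chosen with earlier results of these data known. Their counts beside the shares of all genes are thus not independent evidence, in this or any other class. Lower members were found among the integrins, adaptors, crosslinkers, myosin genes and regulators, and the higher ones were the integrins Itga1 and Itga6, the talin Tln2 and, close to the level of free RNA, the cofilin Cfl1. The plot of adipocyte levels gives all members side by side.

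**Figure D1:**
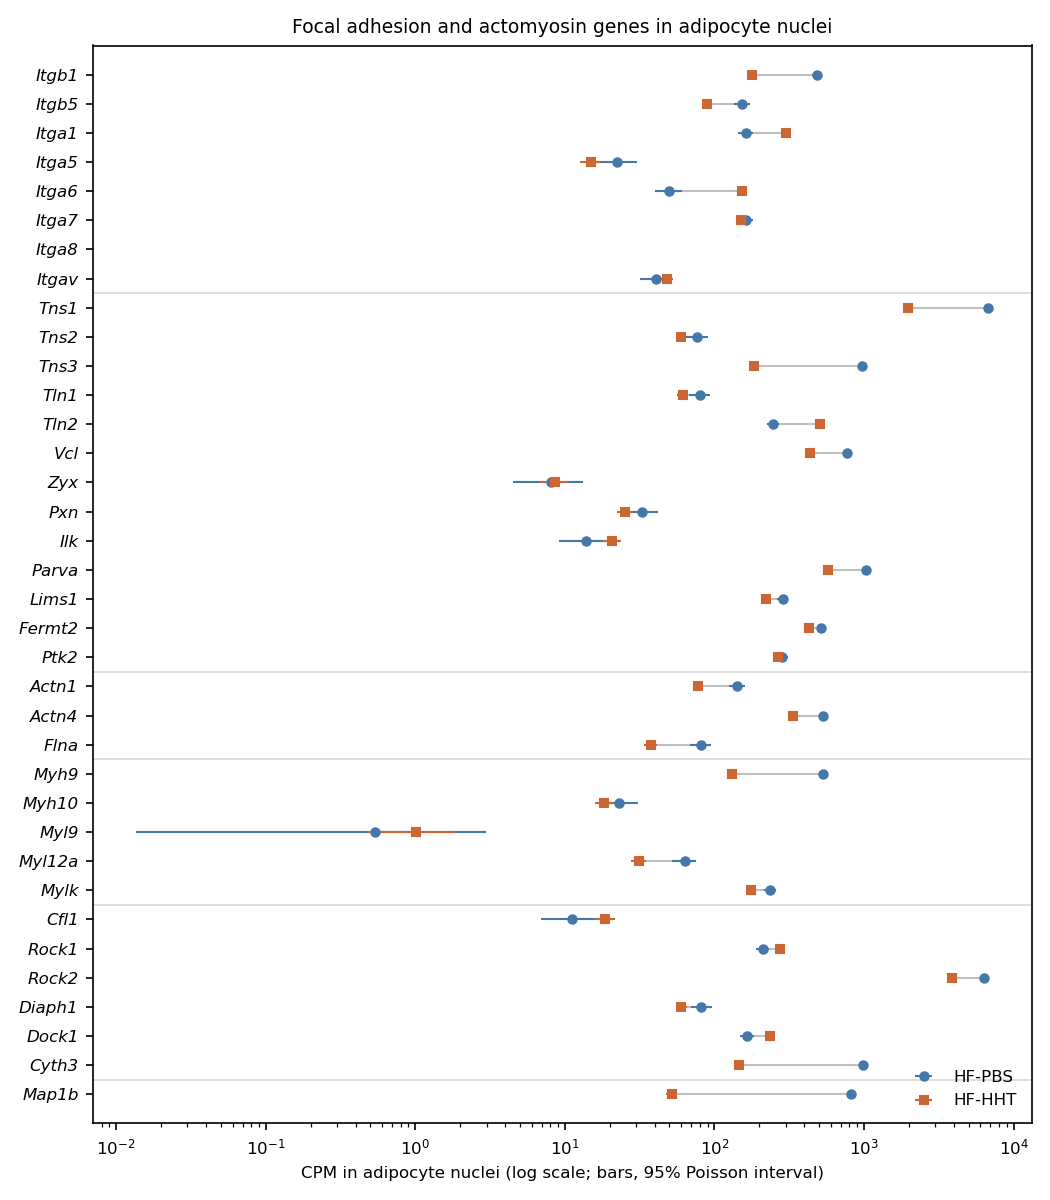
CPM of each gene in adipocyte nuclei (x axis, log scale) in HF-PBS (blue circles) and HF-HHT (orange squares), ordered by role with thin lines between roles; bars are 95% Poisson intervals of 1 library each. The widest gap is that of Map1b (820 against 51.9 CPM), and Itga8, with 0 UMIs in either library, has no point.

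Among the integrins of adipocyte nuclei, the subunits went in both directions. Itgb1, the beta subunit shared by most collagen, laminin and fibronectin receptors, was at 483 CPM in HF-PBS against 178 in HF-HHT (log2 ratio -1.44 [-1.56, -1.33]). Itgb5, the partner of the alphaV subunit in a vitronectin receptor, was at 153 and 89.7 CPM (-0.77 [-0.96, -0.57]). Itga5, the fibronectin receptor subunit, was at 22.5 and 14.9 CPM, with intervals that overlap between the libraries (-0.59 [-1.10, -0.06]). These 3 were the lower integrins, and the last one rested on 42 and 148 UMIs.

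The collagen receptor subunit Itga1 was at 163 CPM in HF-PBS against 303 in HF-HHT (log2 ratio 0.90 [0.73, 1.07]). The laminin receptor subunit Itga6 was at 49.7 and 154 CPM (1.63 [1.33, 1.95]). Both pair with Itgb1, which had the opposite direction in the same nuclei. A second laminin receptor subunit, Itga7, stayed close between the libraries at 162 and 150 CPM (-0.11 [-0.28, 0.08]), as did Itgav at 40.7 and 48.0 CPM. Itga8, which binds RGD-containing ligands, had 0 UMIs in both, where 3 UMIs would be 1.60 CPM in HF-PBS against 0.30 in HF-HHT.

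The tensins, adaptors that bind integrin tails and actin, split by member. Tns1 was at 6770 CPM in HF-PBS adipocyte nuclei against 1974 in HF-HHT (log2 ratio -1.78 [-1.81, -1.75]), and Tns3 at 966 and 183 CPM (-2.40 [-2.50, -2.31]). Tns2 was at 76.5 and 59.7 CPM (-0.36 [-0.62, -0.08]), within 1.5-fold. Tns1 and the regulator Cyth3 are labelled in a plot of adipocyte differences that the study drew from these same libraries, so their place among the lower genes is not independent evidence. Counted per nucleus, the middle 80% of Tns1 levels ran from 4299 to 9729 CPM in HF-PBS and from 613 to 3483 CPM in HF-HHT, ranges that do not overlap. For Tns3 the same range was 98.1 to 1777 CPM and 0 to 564 CPM, and these ranges overlap.

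The 2 talins, which join integrin tails to actin, had unequal ratios. Tln1 was at 79.7 and 61.4 CPM (-0.38 [-0.64, -0.11]), within 1.5-fold, while Tln2 was at 246 CPM in HF-PBS against 512 in HF-HHT (1.06 [0.92, 1.20]). Vcl, the vinculin that binds stretched talin, was at 773 and 433 CPM (-0.84 [-0.92, -0.75]). Tln2 and Vcl therefore lay on opposite sides in the same nuclei. Within the complex of integrin-linked kinase, Parva was at 1028 and 575 CPM (-0.84 [-0.91, -0.76]), Lims1, which encodes PINCH1, at 287 and 221 CPM (-0.37 [-0.51, -0.24]), and Ilk itself at 13.9 and 20.8 CPM (0.58 [-0.01, 1.23]). Of these 3 partners 1 was lower and the other two were within 1.5-fold.

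The remaining adaptors were within 1.5-fold in adipocyte nuclei. Fermt2, the kindlin-2 that activates integrins together with talin, was at 518 and 430 CPM (-0.27). Ptk2, the focal adhesion kinase, was at 285 and 265 CPM (-0.10), and the scaffold Pxn, or paxillin, at 32.6 and 25.2 CPM (-0.37). Zyx, the zyxin of adhesions under tension, was at 8.02 and 8.55 CPM (0.09 [-0.71, 0.99]), from 15 and 85 UMIs, a depth at which a difference of this size is not detectable.

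The promoters of the 36 genes were searched for the CArG box, the motif of serum response factor, which is known to drive genes of the actin cytoskeleton. RefSeq promoters of 300 bases (250 before and 50 after the start, build GRCm38.p6) were at hand for 28 members. These 28 genes had 31 promoters, and a gene was counted if any of its promoters held a motif, while the shares of all promoters are per promoter. The box, on either strand, was found in 3 of these 28 genes, beside 1.63% of all 32851 promoters. Their sequences are shown as the only matches, 5′ to 3′ along the gene, with the box in capitals. They are Vcl (chr14:20929148-20929447, plus strand, box at -227 to -218 from the start), Fermt2 (chr14:45530016-45530315, minus strand, box at -204 to -195) and Myl9 (chr2:156775214-156775513, plus strand, box at -161 to -152).
Vcl: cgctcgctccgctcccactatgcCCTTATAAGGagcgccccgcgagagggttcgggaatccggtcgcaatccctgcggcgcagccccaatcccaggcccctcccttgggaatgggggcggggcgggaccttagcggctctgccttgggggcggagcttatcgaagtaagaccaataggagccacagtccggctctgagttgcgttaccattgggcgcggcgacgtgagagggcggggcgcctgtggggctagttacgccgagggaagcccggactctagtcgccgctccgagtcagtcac
Fermt2: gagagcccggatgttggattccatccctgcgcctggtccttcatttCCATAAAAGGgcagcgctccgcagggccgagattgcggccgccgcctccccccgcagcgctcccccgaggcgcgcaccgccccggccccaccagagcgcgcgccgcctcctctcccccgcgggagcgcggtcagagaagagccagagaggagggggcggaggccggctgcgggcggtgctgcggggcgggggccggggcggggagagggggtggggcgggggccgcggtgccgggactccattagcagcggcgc
Myl9: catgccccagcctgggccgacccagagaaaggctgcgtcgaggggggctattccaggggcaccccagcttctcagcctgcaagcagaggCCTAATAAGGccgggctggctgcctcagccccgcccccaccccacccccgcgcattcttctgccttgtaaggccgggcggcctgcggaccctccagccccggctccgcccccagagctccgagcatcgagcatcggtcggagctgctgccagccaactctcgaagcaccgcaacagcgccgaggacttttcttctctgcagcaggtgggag
Of these genes Vcl was lower in adipocyte nuclei, Fermt2 was within 1.5-fold, and Myl9 had too few UMIs there. Another motif, CATTCC, the core bound by TEAD factors, was found on either strand in 8 of the 28 members (Actn4, Dock1, Itgb1, Myh10, Vcl, Mylk, Myl12a and Flna), beside 14.7% of all promoters. The Vcl promoter held both without overlap. A match is a description of the letters in this window only.

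All 3 actin crosslinkers were lower in HF-HHT adipocyte nuclei. Flna, the filamin A that ties actin into networks, was at 80.8 and 37.6 CPM (-1.10 [-1.38, -0.82]). The alpha-actinins, which bundle the actin fibers ending at adhesions, were at 142 and 77.4 CPM for Actn1 (-0.88 [-1.08, -0.67]) and at 531 and 334 CPM for Actn4 (-0.67 [-0.77, -0.57]). The levels of the 2 libraries had intervals that do not overlap for each of the 3.

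Non-muscle myosin genes were lower or within 1.5-fold. Myh9, the heavy chain of myosin IIA, was at 535 CPM in HF-PBS against 132 in HF-HHT (-2.02 [-2.14, -1.90]). Myh10, the heavy chain of myosin IIB, was at 23.0 and 18.4 CPM (-0.32 [-0.81, 0.19]). The regulatory light chain Myl12a was at 63.1 and 31.3 CPM (-1.01 [-1.32, -0.69]), and the kinase Mylk, which activates the light chains, at 235 and 175 CPM (-0.43 [-0.58, -0.27]). Myl9, a light chain of contractile cells, had 1 and 10 UMIs and was not measured.

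Among the regulators, Rock2 and Rock1, kinases that raise myosin activity, differed from each other. Rock2 was at 6374 CPM in HF-PBS against 3850 in HF-HHT (-0.73 [-0.76, -0.70]), and Rock1 at 210 and 275 CPM (0.39 [0.24, 0.54]). The difference in Rock2 lay in the upper part of its distribution. Its 10th percentile over nuclei was 1393 and 1392 CPM, its median 4752 and 3160 CPM, and its 90th percentile 12760 and 6797 CPM. Cyth3, an exchange factor for Arf GTPases, was at 987 and 145 CPM (-2.76 [-2.86, -2.66]). Cfl1, the actin-severing cofilin, was at 11.2 and 18.6 CPM from 21 and 185 UMIs (0.73 [0.07, 1.45]), where free RNA alone would give 4.73 and 11.4 CPM. With free RNA subtracted its log2 ratio was 0.14, no longer past 1.5-fold. The formin Diaph1, which elongates actin filaments, was at 81.8 and 60.1 CPM (-0.44), and Dock1, an exchange factor for Rac, at 166 and 237 CPM (0.51). Map1b had the lowest ratio, at 820 and 51.9 CPM (-3.98 [-4.13, -3.84]), and its median over nuclei was 302 CPM in HF-PBS against 0 in HF-HHT.

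Shares of adipocyte nuclei with a UMI were taken after each nucleus was thinned to 1000 UMIs, which left out 1 HF-PBS and 0 HF-HHT nuclei. Among the members at least 1.5-fold apart, they had the same direction as the levels for all but Rock2. Within 1.5-fold, Fermt2, Lims1 and Pxn had slightly higher shares and lower levels in HF-HHT. Tns3 was found in 60.4% [51.9, 68.5] of HF-PBS nuclei and in 11.9% [9.78, 14.3] of HF-HHT nuclei (90.3% and 53.3% unthinned). Itgb1 was found in 35.4% [27.6, 43.8] and 16.65% [14.2, 19.3], against 24.4% and 22.4% of macrophage nuclei at the same depth. Tln2 was found in 20.8% [14.5, 28.4] and 36% [32.8, 39.4], and in macrophages, where its level was at that of free RNA, in 0.495% and 1.66%. Itga6 was found in 2.78% [0.76, 6.96] and 11.4% [9.35, 13.8] (37.2% and 58.9% unthinned). Rock2 was found in 93.8% of nuclei of either library.

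**Figure D2:**
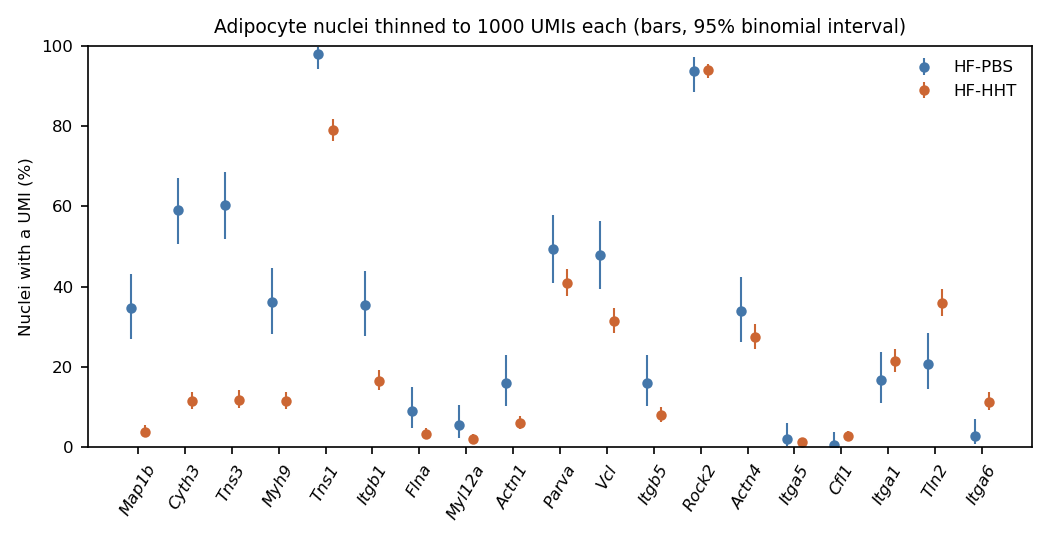
Share of adipocyte nuclei, each thinned to 1000 UMIs, that hold at least 1 UMI of the gene (y axis, percent), with 144 HF-PBS nuclei in blue and 841 HF-HHT nuclei in orange, for the members at least 1.5-fold apart, ordered from the lowest to the highest log2 ratio; bars are exact 95% binomial intervals. Map1b, Cyth3 and Tns3 stand at 34.7%, 59.0% and 60.4% in HF-PBS against 3.92%, 11.5% and 11.9% in HF-HHT, and Tln2 and Itga6 are higher in HF-HHT.

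Markers of other cell types were also counted in these nuclei. The 9 macrophage markers summed to 221 CPM in HF-PBS against 102 in HF-HHT adipocyte nuclei, against 5969 and 5916 CPM in macrophages, and the 7 perivascular markers to 67.4 and 29.3 CPM, with 3 and 2 of them at 0. The 9 APC markers summed to 110 and 61.8 CPM and the 7 B cell markers to 49.2 and 2.92 CPM, none of them at 0. The 9 erythroid markers summed to 7.49 and 155 CPM, with 5 and 0 at 0, the 5 Schwann cell markers to 567 and 377 CPM, with 3 and 1 at 0, and the 7 duct-like epithelial markers to 263 and 149 CPM, with 3 and 0 at 0. In HF-PBS macrophages the Schwann list summed to only 9.50 CPM and the duct-like list to 2.92 CPM, and HF-PBS held 0 duct-like nuclei. Free RNA was estimated at 7.01% and 6.97% of adipocyte UMIs. Whether these marker UMIs came from other cells or from the adipocytes was not tested, nor was their part in the differences. With free RNA subtracted, 14 members were lower and 6 higher. Split into 2 clusters at a finer resolution, an alternative chosen after the data were seen, adipocyte nuclei gave 14 lower members among 118 HF-PBS and 586 HF-HHT nuclei and 15 among 27 and 255 nuclei. The larger of these clusters was led by Ccn5 and Pex5l, the smaller by Cyp2e1 and Adrb3, the beta-3 adrenergic receptor of fat cells. The log2 ratio of Tns1 was -1.74 and -1.79, of Myh9 -1.94 and -1.93, and of Itga6 1.68 and 1.42. That of Tns3 was -2.14 and -4.28, of Tln2 1.07 and 2.16, and of Itga5 -0.20 and -2.58, so these 3 were further from 0 in the smaller cluster.

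In APC nuclei, fewer members differed. Of the 35 measured, 7 were at least 1.5-fold lower, beside 8.13% of the 12195 measured genes, and 4 were higher, beside 23.0%. With TMM scaling or with median-of-ratios scaling the split was 11 lower and 2 higher, and over all 12195 genes it went from 991 lower and 2803 higher to 1508 and 1946 with TMM and 1627 and 1838 with median-of-ratios. The median log2 ratio of the members was -0.10, against 0.17 for all measured genes.

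Tns1 was at 1478 CPM in HF-PBS against 465 in HF-HHT APC nuclei (-1.67 [-1.75, -1.58]) and Cyth3 at 1808 and 557 CPM (-1.70 [-1.78, -1.62]). Tln2 was at 405 and 118 CPM (-1.78 [-1.95, -1.61]), the opposite direction to adipocyte nuclei. Itga5 was at 320 and 150 CPM (-1.09 [-1.25, -0.93]). These 4 genes were the furthest below 0, and their levels do not overlap between libraries. Myh9 was at 467 and 282 CPM (-0.73 [-0.85, -0.61]), Tns3 at 457 and 298 CPM (-0.62 [-0.73, -0.50]) and Vcl at 269 and 176 CPM (-0.61 [-0.77, -0.46]).

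On the higher side in APC nuclei, Tln1 was at 51.9 and 78.3 CPM (0.59 [0.33, 0.86]) and Ilk at 17.9 and 28.1 CPM (0.65 [0.20, 1.10]). Myl9 and Itga7 were also higher, but rested on 15 and 23 UMIs and on 20 and 23 UMIs, and Itga7 lay below the level expected from free RNA, which was estimated at 14.5% and 20.5% of APC UMIs. The other 24 measured members lay between -0.45 and 0.55, among them Itgb1 (270 and 235 CPM), Parva (403 and 357 CPM), Rock2 (1163 and 921 CPM) and Map1b (143 and 141 CPM). Itga8, with 5 and 4 UMIs, was not measured.

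The APC nuclei came from 3 clusters whose mix differed, with 562, 154 and 40 nuclei in HF-PBS and 377, 156 and 135 in HF-HHT. Within these clusters, taken alone after the data were seen, the log2 ratio of Tns1 was -1.93, -1.02 and -1.28, that of Cyth3 -1.65, -1.34 and -1.46, that of Tln2 -1.77, -0.91 and -0.78, and that of Itga5 -0.86, -1.38 and -1.69. The ratio of Myh9 was -0.64 in the first, -0.14 in the second and 0.087 in the third cluster, and that of Tns3 -0.54, -0.0047 and -0.18. The ratio of Vcl, at -0.50, -0.42 and -0.58, was under 1.5-fold in each. At 1000 UMIs per nucleus, Tns1 was found in 71.6% [68.2, 74.8] of HF-PBS and 36.4% [32.6, 40.2] of HF-HHT APC nuclei and Tln2 in 28.0% [24.8, 31.4] and 9.05% [6.93, 11.6], with 3 and 38 shallower nuclei left out.

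Macrophage nuclei held few members past 1.5-fold. Of the 34 measured, 2 were lower, beside 6.5% of the 13869 measured genes, and 7 were higher, beside 22.9%. The split was 5 lower and 7 higher with TMM scaling, and 7 and 7 with median-of-ratios scaling. Over all 13869 genes it went from 901 lower and 3170 higher to 1372 and 2293 with TMM and 1506 and 2160 with median-of-ratios. Itgb5 was at 243 and 143 CPM (-0.76 [-0.86, -0.67]) and Actn1 at 168 and 109 CPM (-0.62 [-0.74, -0.51]).

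Among the higher members, Myh10 was at 4.47 and 23.3 CPM (2.38 [2.0, 2.77]) and Cfl1 at 20.6 and 50.5 CPM (1.29 [1.08, 1.5]). Both lay above the level expected from free RNA, which was estimated at 13.2% and 14.2% of macrophage UMIs. The other 5 did not. Itga1 was at 3.97 and 10.5 CPM where free RNA alone would give 5.80 and 23.9 CPM, Itga7 at 3.17 and 7.62 CPM, Tln2 at 5.03 and 13.2 CPM, Mylk at 3.32 and 10.8 CPM and Tns2 at 2.11 and 3.74 CPM. These 5 levels are read as background. Tns1 was at 441 and 368 CPM (-0.26), Myh9 at 246 and 264 CPM (0.10) and Cyth3 at 151 and 113 CPM (-0.42), each within 1.5-fold. The other 22 members within 1.5-fold lay between -0.44 and 0.57, and Itga8 and Myl9 had too few UMIs.

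**Figure D3:**
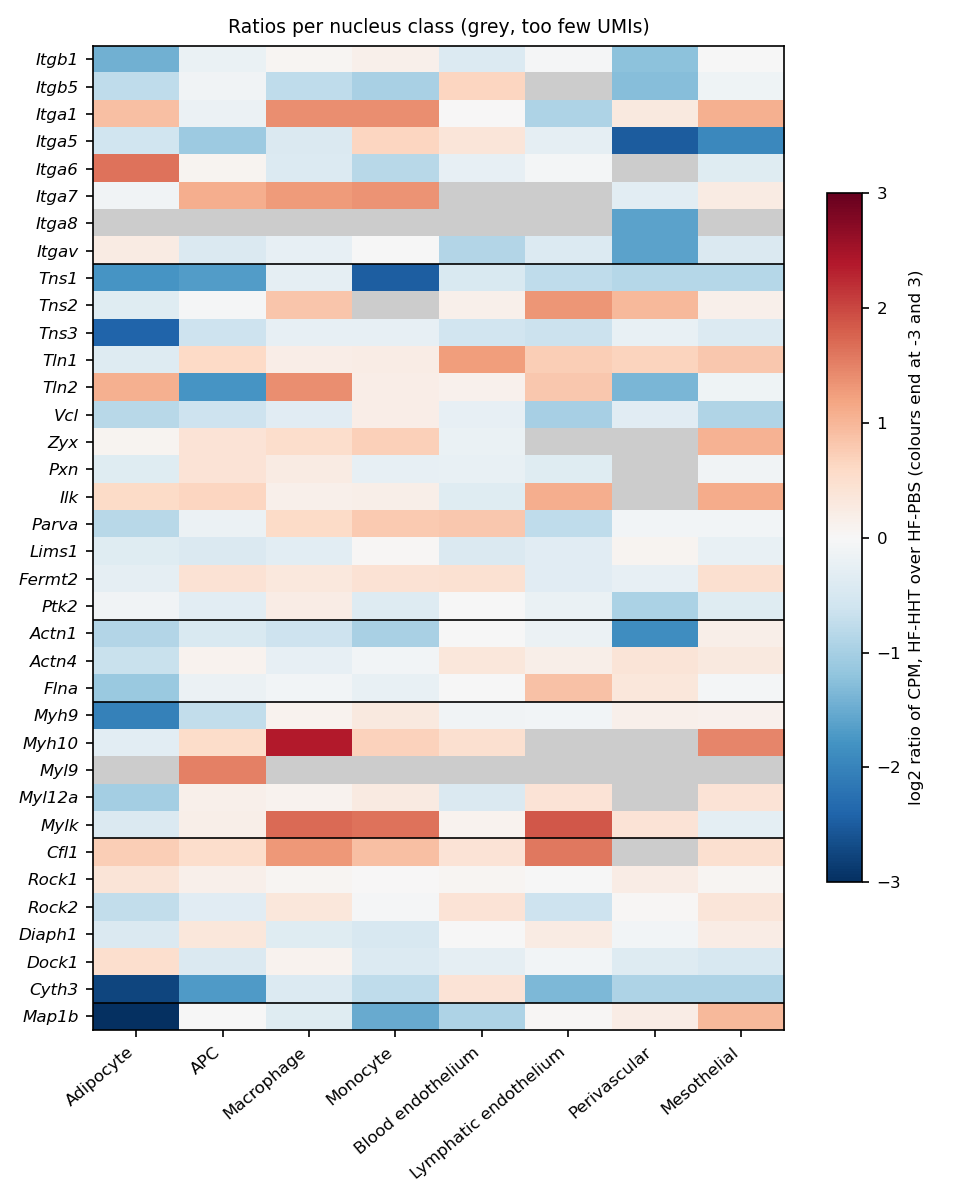
Log2 ratio of CPM, HF-HHT over HF-PBS (colour; red higher, blue lower in HF-HHT, ending at -3 and 3), for each gene (rows, ordered by role) in 8 nucleus classes (columns); grey marks genes with under 20 UMIs over both libraries. Tns1 and Cyth3 are at least 1.5-fold lower in 6 of the 8 classes each, and Tln2 is red in adipocytes and blue in APCs. The HF-HHT level of Tns1 in monocytes lay below that expected from free RNA.

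Across 8 classes, Tns1 was lower in 6 and within 1.5-fold in the other two, and its ratios ran from -2.48 in monocytes to -0.26 in macrophages. The size of the monocyte ratio is uncertain, since the HF-HHT level there lay below that expected from free RNA. Over the alternatives it ran from -7.47 to -2.39. Cyth3 was also lower in 6, with ratios from -2.76 to 0.41. By contrast Lims1, Fermt2, Rock1, Diaph1 and Dock1 were within 1.5-fold in all 8, and Pxn in all 7 in which it was measured. All of these classes come from the same libraries, so they are not separate replicates of the comparison.

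In monocytes (329 and 797 nuclei) 6 of 33 measured members were lower, beside 12.5% of all measured genes, and 8 were higher, beside 22.1%. Of the higher members, Itga7, Parva and Mylk lay at or below the level of free RNA in both libraries, as did Map1b among the lower ones. Free RNA was estimated at 27.3% and 17.6% of monocyte UMIs, and with it subtracted the balance turned to 11 lower and 5 higher. Tns1 was at 316 CPM in HF-PBS against 56.9 in HF-HHT, the latter below what free RNA would give. Itgb5 was at 237 and 121 CPM, Cyth3 at 178 and 106 CPM, Itga6 at 40.6 and 22.9 CPM, and Actn1 at 29.9 and 15.4 CPM. Higher were Itga5 (104 and 163 CPM), Cfl1 (65.8 and 123 CPM), Zyx (43.9 and 72.2 CPM) and Itga1 (14.6 and 38.5 CPM). Actn1 and Itga1 lay near the level that free RNA would give, 38.1 and 13.9 CPM for Actn1 and 12.0 and 29.6 CPM for Itga1. Itga5, the fibronectin receptor subunit, was higher here and lower in APC nuclei.

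Mesothelial nuclei, the lining of the depot (160 and 319 nuclei), had 4 of 34 members lower, beside 13.4%, and 6 higher, beside 23.6%. The 7 mesothelial markers summed to 1690 and 3740 CPM in this class, and the 9 APC markers to 3723 and 4095 CPM. The 9 markers of dividing nuclei summed to 27 and 233 CPM. The part of these marker differences in the ratios was not tested. The lower ones were Itga5 (109 and 28.4 CPM), Cyth3 (260 and 136 CPM), Vcl (327 and 174 CPM) and Tns1 (427 and 234 CPM). The higher ones were Myh10 (44.4 and 123 CPM), Ilk (13.5 and 29.0 CPM), Itga1 (46.8 and 97.2 CPM), Zyx (33.3 and 68.2 CPM), Map1b (106 and 208 CPM) and Tln1 (75.3 and 131 CPM). Map1b had the opposite direction in adipocyte nuclei.

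Endothelial and perivascular nuclei were few. In blood endothelium (46 and 202 nuclei) 2 of 33 members were lower, beside 14.6%, and 3 higher, beside 23.8%. The counts were 2 and 7 with free RNA subtracted and 5 and 2 with every nucleus weighted equally, so no balance between the directions can be read here. Parva was higher (183 and 323 CPM) and Itgav lower (167 and 90.8 CPM), and the log2 ratio of Itgav was 0.059 once free RNA, estimated at 36.2% and 17.7% of UMIs, was subtracted. In lymphatic endothelium (52 and 201 nuclei) 7 of 30 were lower, beside 11.9%, and 7 higher, beside 24.1%. Cyth3 (283 and 111 CPM), Vcl (253 and 126 CPM), Itga1 (400 and 210 CPM), Tns1 (1817 and 1069 CPM), Parva (525 and 308 CPM) and Rock2 (1239 and 808 CPM) were lower there, and Mylk (71.8 and 260 CPM) was higher. The depth of these lymphatic nuclei also differed, with a median of 4831 and 1263 UMIs, as did the estimated free RNA, 9.60% and 23.8% of UMIs.

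Perivascular nuclei, from 28 HF-PBS and 26 HF-HHT nuclei, had 10 of 28 measured members lower, beside 25%, and 2 higher, beside 18.7%. Actn1 was at 464 and 128 CPM (-1.86 [-2.94, -0.93]), Tln2 at 421 and 162 CPM (-1.37 [-2.33, -0.51]) and Itgb1 at 653 and 278 CPM (-1.23 [-1.94, -0.57]). Ptk2 was at 537 and 278 CPM, Cyth3 at 660 and 348 CPM and Tns1 at 1959 and 1079 CPM. Free RNA was estimated at 48.0% of UMIs in the HF-PBS nuclei and 15% in the HF-HHT nuclei of this class. With it subtracted, 13 members were lower and 4 higher.

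**Figure D4:**
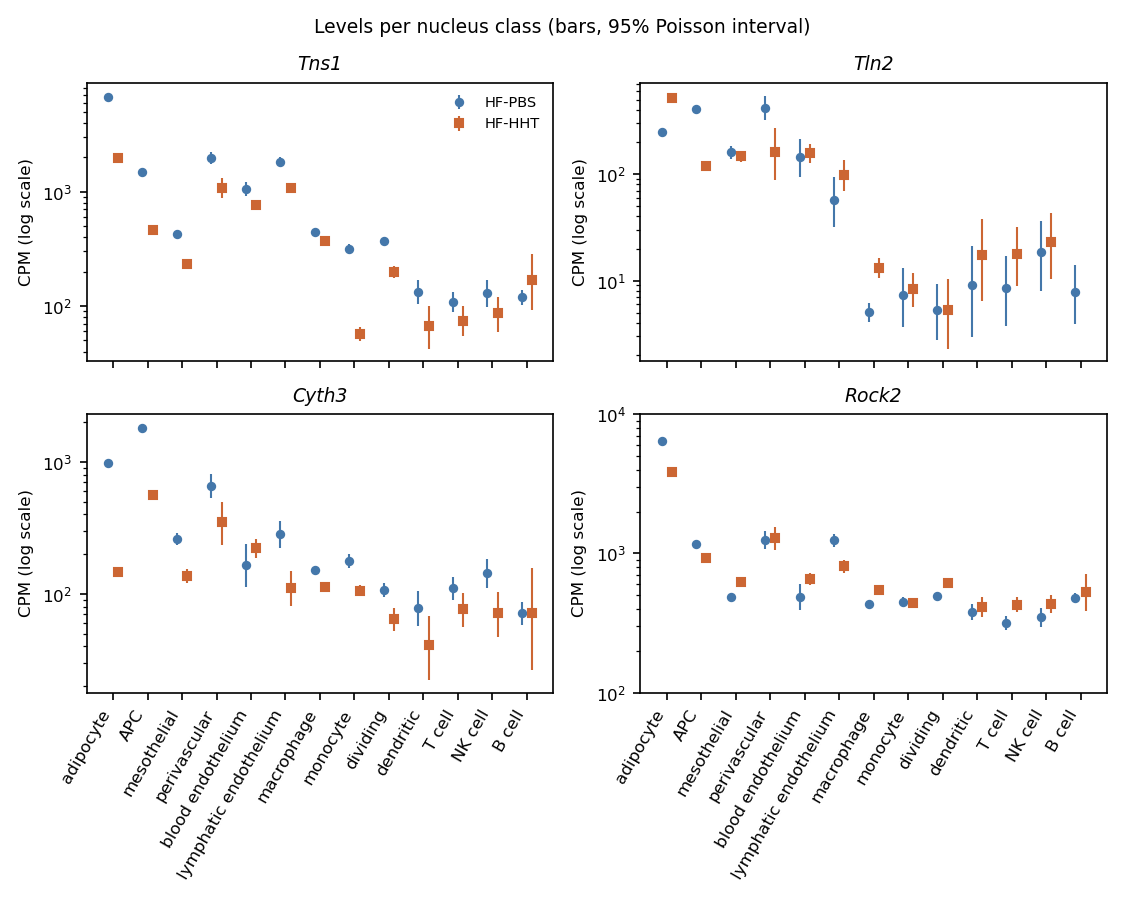
CPM (y axes, log scale) of Tns1, Tln2, Cyth3 and Rock2 in 13 nucleus classes in HF-PBS (blue circles) and HF-HHT (orange squares); bars are 95% Poisson intervals of 1 library each. Tns1 and Rock2 are highest in adipocytes and Cyth3 in APCs in both libraries, while Tln2 is highest in adipocytes in HF-HHT and has overlapping intervals in perivascular nuclei and APCs, the 2 highest classes, in HF-PBS; Tln2 has no point in HF-HHT B cells, where it had 0 UMIs.

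Over 13 classes present in both libraries, 18 of the 36 members had their highest level in the same class in both. That count takes each rank as it stands, also where the intervals of the 2 highest classes overlap, as for Zyx, Myh9 and Cfl1. Adipocytes held the highest level of 10 HF-PBS and 6 HF-HHT members, and perivascular nuclei of 10 and 11. These counts also take each rank as it stands. Among the adipocyte ranks, the intervals of the 2 highest classes overlapped for Itga7, Tns2, Parva, Fermt2 and Actn4 in HF-PBS. In HF-HHT they overlapped for Itga7, Vcl and Fermt2. Among the perivascular ranks, from 28 and 26 nuclei, they overlapped for Itgb1, Itga1, Tln2, Myh9 and Myl12a in HF-PBS. The HF-HHT ones were Tns2, Lims1, Actn4, Myh9 and Map1b. Tns1 stood at 6770 CPM in HF-PBS adipocytes against 1959 CPM in the next class, perivascular nuclei, and was still highest in HF-HHT adipocytes at 1974 CPM. Rock2 was highest in adipocytes of both libraries, with 1248 CPM in the next class in HF-PBS. Map1b (820 CPM) and Tns3 (966 CPM) were highest in adipocytes in HF-PBS only, and their highest level in HF-HHT was in perivascular nuclei (220 CPM) and in dendritic cells (620.5 CPM). Neither of these HF-HHT ranks is resolved, since the intervals overlap those of mesothelial nuclei for Map1b (208 CPM) and of macrophages for Tns3 (575 CPM), and free RNA was estimated at 53.8% of HF-HHT dendritic UMIs. Itga7 was highest in adipocytes in both, but its interval overlapped that of perivascular nuclei.

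Integrins were then set beside adaptors and myosin genes. In adipocyte nuclei the median log2 ratio of the 7 measured integrins was -0.11 and that of the 17 measured adaptors and myosin genes was -0.37, with 3 integrins lower and 2 higher against 6 lower and 1 higher. The integrin median was the lower one in APCs (-0.17 against 0.06), in macrophages (-0.25 against 0.23) and, from few nuclei, in perivascular nuclei (-1.27 against -0.16). In APCs the gap was small with free RNA subtracted (-0.26 against -0.21) and with every nucleus weighted equally (-0.017 against 0.046). It was also small in the APC cluster led by C7 alone (-0.067 against -0.047). The APC integrins Itga6 and Itga7 lay at or below the level of free RNA in both libraries. The macrophage medians include Itga1, Itga7, Tns2, Tln2, Mylk, Parva and Fermt2, all at or below the level of free RNA, and the integrin median there was above 0 under 3 alternatives (0.033 with every barcode of at least 500 UMIs, 0.18 without upper limits, 0.087 with 14 clusters). The members of the 2 groups overlapped, from -1.44 to 1.63 and from -2.40 to 1.06 in adipocytes. In monocytes the medians were 0.15 and 0.21, in blood endothelium -0.13 and -0.11, in lymphatic endothelium -0.27 and -0.20, and in mesothelial nuclei -0.13 and -0.08.

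**Figure D5:**
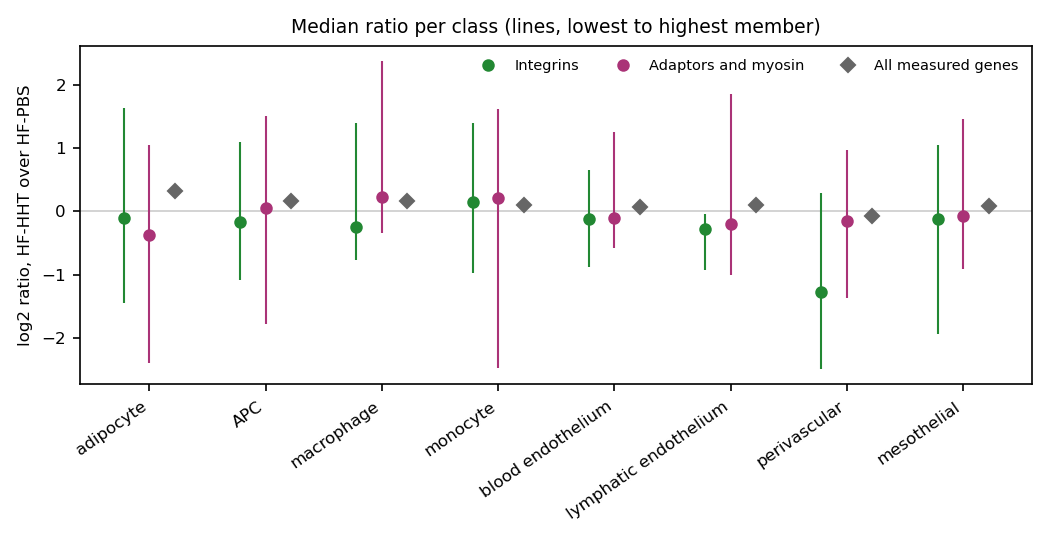
Median log2 ratio of CPM, HF-HHT over HF-PBS (y axis), of integrins (green), of adaptors and myosin genes (purple) and of all measured genes (grey diamonds) in 8 nucleus classes; vertical lines run from the lowest to the highest member and are not errors. In adipocytes the medians are -0.11, -0.37 and 0.32, and the member ranges overlap in every class.

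Another 94 genes of the same pathways, also listed with earlier results of these data known, gave a wider but not independent view. In adipocyte nuclei 33 of the 83 measured were lower and 9 higher, in APCs 12 and 10 of 85, and in macrophages 9 and 17 of 86. The shares over all measured genes, given above, were 12.1% lower and 36% higher in adipocytes, 8.13% and 23.0% in APCs, and 6.5% and 22.9% in macrophages, so the share of higher genes in macrophages lay near the background. In adipocytes the 12 measured other integrins had 7 lower and 4 higher, and the 20 measured actin-binding genes 11 lower and 1 higher. The full list of 17 other integrins includes those of leukocytes such as Itgal. Macrophage markers summed to 221 and 102 CPM in these nuclei, and their part in the integrin count was not tested. Among the lowest ratios in adipocytes was that of Acta2, smooth muscle actin (200 and 42.3 CPM). The highest were those of Flnc, filamin C, from 1 and 57 UMIs, and of Tes, or testin (3.21 and 15.1 CPM). In APCs Sorbs2, an adaptor of stress fibers (558 and 98.1 CPM), and the formin Diaph3 were lowest, and Itga4 and Tgfb1i1, the paxillin relative Hic-5 (20.9 and 37.9 CPM), were highest. Itga4, at 21.6 and 38.6 CPM, lay below the level expected from free RNA, 34.2 and 57.0 CPM, and is read as background. In macrophages Flnc and Itgb3 were lowest, from 112 and 9 and from 143 and 16 UMIs, and Vasp, which extends actin filaments (20.1 and 45.9 CPM), and Itgal, the alpha chain of a leukocyte integrin (6.79 and 28.7 CPM), were highest.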

How the data were processed

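Nuclei of epididymal WAT were measured in 2 libraries, HF-PBS and HF-HHT, 1 pool of 3 mice each. The authors deposited raw UMI counts per gene for every barcode, made with Cell Ranger 5.0.0 on mm10, with no normalization; the sources used here do not say how intronic reads were handled. The labels gave the group of each library. The members and gene lists were chosen with earlier results of these data known.

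Barcodes were called by depth (3000 expected nuclei) and, from 500 UMIs, against free RNA (barcodes ranked 45000 to 90000) at a false discovery rate of 0.01. The highest 6.18% and 6.08% of doublet scores (Scrublet, scanpy 1.11.5) were removed, 478 and 462 nuclei. Nuclei with more than 400 genes, under 0.5% mitochondrial UMIs and below the 95th percentile of UMIs and genes were kept. Libraries were integrated in Seurat 5.3.0 (R 4.3.3) with 2000 features and 30 dimensions, leaving out the members and the 94 other pathway genes, and clustered at resolution 1.0. Clusters were named from 20 marker lists by limits set after the clusters were seen (at least 3 markers and 50% of the list found, mean log2 fold of at least 1), which left 58 HF-PBS and 126 HF-HHT nuclei unnamed. A rebuilt class may differ from that of the study.

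UMIs were summed per class and library in Python 3.11.15. Levels carry exact Poisson intervals, ratios exact Clopper-Pearson intervals on the share of UMIs from HF-HHT, and shares exact binomial intervals, all at 95% and for counting error only. For a gene at 0 in 1 library, 3 counts in that library served as the floor. The free RNA share of a class was the median, over marker lists of unrelated classes, of their share in the class against that in free RNA. Members with at least 50 UMIs in the higher library and a ratio of at least 1.5-fold are named with both levels, and of the other pathway genes the 2 lowest and 2 highest, 1 of which is not reported here. Ratios were tested on simulated data, and scaling was also done with TMM (edgeR 4.0.16). Positions come from GENCODE vM21 (GRCm38).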

Additional observations from a re-analysis of the deposited data

Results flagged for a closer look

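Tln2, a talin, differed in direction between adipocyte and APC nuclei. It was at 246 CPM in HF-PBS against 512 in HF-HHT adipocyte nuclei, and at 405 and 118 CPM in APC nuclei, so its log2 ratio was 2.83 higher in adipocytes. The same gene had a log2 ratio 3.17 higher in macrophages than in APCs (APC minus macrophage, -3.17), where its levels of 5.03 and 13.2 CPM lay below those expected from free RNA. With 1 library per group these differences were not tested.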

How the results depend on the processing

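No paired analysis was possible because each group has 1 library, and no replicate could be left out. Over 16 alternatives, 765 of 769 recomputed ratios of the named members kept their direction and 724 stayed past 1.5-fold. Part of this tally was fixed in advance. Dropping the minimum of UMIs cannot change any of its 70 ratios. Each of the 2 scalings shifts its 70 ratios by a constant per class, too small to turn a ratio past 1.5-fold. With 14 clusters the adipocyte class again held 145 and 841 nuclei. The ratios that changed sign were those of Itgav in blood endothelium (0.059 with free RNA subtracted, 0.066 with every nucleus weighted equally) and, in the APC cluster led by C7 alone, of Ilk (-0.69) and Myh9 (0.087). In APCs the count of lower members was 11 with TMM and with median-of-ratios scaling and 4 in each of the clusters led by Sema3e and by C7 alone, and that of higher members was 2 with either scaling. In macrophages the count of lower members was 5 with TMM, 7 with median-of-ratios scaling, 1 with equal weights and 4 without upper limits on UMIs and genes. In adipocytes, APCs and macrophages both scalings lower every log2 ratio of the class by a constant, 0.19 to 0.23. For the other settings the cause was not tested. The macrophage integrin median was above 0 under 3 alternatives. The balance of lower and higher members turned in several settings. In monocytes it was 11 and 5 with free RNA subtracted and 8 and 6 with 14 clusters. It was 7 and 5 there both with every barcode of at least 500 UMIs and without upper limits. In blood endothelium it was 5 and 2 with nuclei weighted equally and 3 and 2 with doublets kept. It was 5 and 3 there both without the minimum of 20 UMIs and with every barcode of at least 500 UMIs. In the APC clusters led by Sema3e and by C7, each taken alone, 4 members were lower and 5 higher. The adipocyte counts ran from 13 to 20 lower and from 3 to 6 higher members. Without upper limits the adipocyte class held 290 HF-PBS and 1170 HF-HHT nuclei, with 13 lower and 3 higher. The splits of adipocytes and of APCs were chosen after seeing the data. At the resolution of 0.28 that gave 14 clusters, endothelial and perivascular nuclei had no named class, so their ratios were not recomputed.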

Other observations

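The duct-like epithelial nuclei, found in HF-HHT alone, had the highest level of 3 members among the classes of that library. Map1b was at 861 CPM [828, 894] in these 692 nuclei, and next at 380 CPM [338, 424] in multiciliated nuclei. Mylk was at 833 CPM [800, 866], and next at 557 CPM [411, 738] in perivascular nuclei. Itgav was at 519 CPM [493, 545], and next at 307 CPM [255, 367] in NK cells. In the free RNA of the libraries, Mylk was at 38.7 CPM in HF-PBS against 109 in HF-HHT, Itga1 at 44.0 and 168 CPM, and Tln2 at 63.8 and 147 CPM. Erythroid nuclei, also from HF-HHT alone, carried Cfl1 at 113 CPM, Myh10 at 162 CPM and Cyth3 at 338 CPM.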
